A study of Homo sapiens with 22 samples.

Results

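Clusters of CTCF peaks were examined in hTERT RPE-1, a line of human cells from the retinal pigment epithelium made immortal with telomerase. Members were chosen by the positions of CTCF summits alone: neighbouring summits at most 5 kb apart were chained along each chromosome, and chains of 3 or more peaks were kept. This gave 1326 clusters of 50107 chains in all, and they held 4337 of the 59138 CTCF peaks, or 7.33%. Another 6020 chains were pairs with 12040 peaks, and 42761 peaks stood alone. The peak lists come from chromatin immunoprecipitation sequencing, with 1 library for every protein and condition, so differences have no check against replicates, and 1 comparison was tested, over the 2 clones. Intervals are 95% Wilson intervals for shares and 95% Newcombe intervals for differences. They cover counting error only, and neighbouring peaks of a cluster are not independent.

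Wild-type cells gave the CTCF and WAPL libraries. RAD21 came from 2 clones whose NIPBL carries a degron, a domain that lets the small molecule dTAGV-1 direct the protein to degradation. Clone A2 is mCherry-P2A-FKBP12(F36V)-NIPBL and clone D7 is mGreenLantern-P2A-FKBP12(F36V)-NIPBL, and each is a single clone. Both were grown as cycling, unsynchronised cultures and treated with DMSO for 24 h or with dTAGV-1 for 4 h or 24 h. PDS5A came from clone D7 after 24 h in DMSO, and STAG1 and STAG2 from clone D7, for which the labels state no treatment and the peak names read DMSO. RAD21 and PDS5A chromatin had about 10% of mouse NIH/3T3 material added as a spike-in, and the clones share the tagged NIPBL also in DMSO. CTCF sites were therefore defined in cells other than those in which RAD21 was followed. Peak lists hold no expression values, so the cell line could not be checked against marker genes.

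CTCF is a zinc finger protein that binds a long DNA motif and halts cohesin as it moves along chromatin. Cohesin is a ring of SMC proteins closed by the kleisin RAD21. It carries either STAG1 or STAG2 as an accessory subunit, with NIPBL as the factor that activates its ATPase and drives loop extrusion. PDS5A binds the ring through the kleisin and takes part both in holding it on chromatin and in its release, while WAPL opens the ring and removes it. Sites of CTCF close to each other are known from protocadherin promoters and from imprinted loci.

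Sequences are shown for clusters whose CTCF summits lie in promoter windows, because there the repeated unit of a cluster can be read. In the cluster of protocadherin gamma promoters (chr5:141407792-141421693), each of the 4 CTCF summits lay within the 250 bases before the annotated start of a different gene. These genes encode cadherin-like adhesion proteins that share their last exons and have a promoter each. The windows are RefSeq GRCh38.p14 sequence on the plus strand, from chr5:141407771-141408020 for PCDHGB6, chr5:141412737-141412986 for PCDHGA10, chr5:141417427-141417676 for PCDHGB7 and chr5:141420801-141421050 for PCDHGA11. Capitals mark GCGCCGC, letters that these 4 windows share and that were chosen after the windows had been read. A second PCDHGB6 window in the table, for another annotated start (chr5:141407953-141408202), holds the same summit at base 11 and none of these letters in that order, and is not printed.
PCDHGB6: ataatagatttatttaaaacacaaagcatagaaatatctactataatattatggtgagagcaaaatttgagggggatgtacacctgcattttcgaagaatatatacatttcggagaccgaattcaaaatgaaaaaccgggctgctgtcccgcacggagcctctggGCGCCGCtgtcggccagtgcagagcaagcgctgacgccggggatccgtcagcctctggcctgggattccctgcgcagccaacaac
PCDHGA10: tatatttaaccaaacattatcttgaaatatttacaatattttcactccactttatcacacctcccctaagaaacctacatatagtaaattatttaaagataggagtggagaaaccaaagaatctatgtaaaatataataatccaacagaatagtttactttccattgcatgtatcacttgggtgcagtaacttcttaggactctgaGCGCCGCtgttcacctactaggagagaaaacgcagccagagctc
PCDHGB7: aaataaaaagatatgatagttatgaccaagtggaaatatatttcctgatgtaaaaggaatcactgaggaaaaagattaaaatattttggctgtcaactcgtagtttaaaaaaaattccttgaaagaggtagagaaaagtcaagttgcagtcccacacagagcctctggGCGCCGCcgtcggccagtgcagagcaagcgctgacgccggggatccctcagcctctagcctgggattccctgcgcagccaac
PCDHGA11: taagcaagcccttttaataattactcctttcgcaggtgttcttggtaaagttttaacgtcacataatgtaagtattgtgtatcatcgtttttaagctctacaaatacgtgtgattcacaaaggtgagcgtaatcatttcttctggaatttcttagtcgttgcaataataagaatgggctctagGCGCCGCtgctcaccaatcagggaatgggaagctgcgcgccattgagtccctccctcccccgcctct

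Counted from the 5′ end of each window, the capitals began at base 166 with the summit at base 193 in PCDHGB6, at base 207 with the summit at base 193 in PCDHGA10, at base 169 with the summit at base 155 in PCDHGB7, and at base 184 with the summit at base 190 in PCDHGA11. CTCF fold over local background, the authors' value, was 4.03 at PCDHGB6, 22.7 at PCDHGA10, 76.3 at PCDHGB7 and 87.2 at PCDHGA11. The same 7 letters, on either strand, were in 16.8% of all 34943 promoter windows of 300 bases and in 37.3% (31.3 to 43.8) of the 225 windows with a clustered CTCF summit. Windows with a single CTCF summit held them in 30.8% (28.8 to 32.9). The printed windows, from which the letters were chosen, are among those with a clustered summit. The intervals of the clustered and the single share meet.

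Some of the other windows at named clusters held letters of the CTCF core motif. Windows of SCRN2, where the CTCF fold was 98.5, and of RPS28 held a CTCF summit but neither AGNNGGCNC nor AGNNGGCAG in the 250 bases before the start, and those of NDUFA7 and BAK1 likewise had neither form. In the windows below, capitals mark AGNNGGCNC, of which N is any base, a form chosen after the windows had been read. They are chr1:109493844-109494093 on the plus strand for CYB561D1 and chr6:149934263-149934512 on the plus strand for LOC105378052, an uncharacterised gene between RAET1G and ULBP2.
CYB561D1: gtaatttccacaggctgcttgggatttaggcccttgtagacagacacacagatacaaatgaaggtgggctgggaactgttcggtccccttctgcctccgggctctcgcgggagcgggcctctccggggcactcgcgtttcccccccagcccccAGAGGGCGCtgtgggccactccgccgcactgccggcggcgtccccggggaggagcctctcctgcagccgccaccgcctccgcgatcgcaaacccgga
LOC105378052: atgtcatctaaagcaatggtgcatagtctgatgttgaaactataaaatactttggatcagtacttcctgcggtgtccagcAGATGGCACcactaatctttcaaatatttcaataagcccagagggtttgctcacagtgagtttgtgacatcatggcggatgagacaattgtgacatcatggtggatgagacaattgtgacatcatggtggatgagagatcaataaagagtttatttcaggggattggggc

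The capitals began at base 154 with the CTCF summit at base 152 in CYB561D1, and at base 81 with the summit at base 69 in LOC105378052. Over all promoter windows, 25.5% held AGNNGGCNC on either strand, against 41.3% (35.1 to 47.9) of windows with a clustered summit and 47.5% (45.3 to 49.7) of windows with a single one. The printed windows, after which this form was chosen, are among those with a clustered summit. The related form AGNNGGCAG was in 11.3% of all windows, in 19.6% (14.9 to 25.2) of those with a clustered summit and in 13.7% (12.3 to 15.4) of those with a single one. Windows of neighbouring genes and of alternative starts can overlap, and a match describes letters, not a bound site.

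Most clusters were small. Of the 1326, 1050 had 3 peaks (79.2%), 209 had 4, 52 had 5 and 15 had 6 or more, with 1 cluster of 7. The distance from first to last summit ranged from 1762 to 22095 bp with a median of 6078 bp, and neighbouring summits lay a median of 2742 bp apart. CTCF peaks of a cluster were unequal: the highest fold in a cluster was a median of 9.54 times the lowest. Median CTCF fold was 14.6 in clusters, 16.3 in pairs and 15.6 at single peaks, and median widths were 749, 753 and 719 bp. At the chaining limit, the 890 peaks of clusters with a largest gap of 4.5 to 5 kb were overlapped by RAD21 in clone A2 in 55.6%, by STAG1 in 43.0%, by STAG2 in 27.5% and by PDS5A in 47.0%. The 620 peaks that a gap of 5 to 5.5 kb kept out had 58.2%, 43.7%, 27.9% and 48.4%.

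The share of CTCF peaks in clusters varied between chromosomes and was higher at gene ends. Chromosome 22 had 13.3% of its CTCF peaks in clusters, chromosome 17 had 12.8% and chromosome 19 had 11.1%, while X had 5.27%. A gene end is either end of a protein-coding gene in the RefSeq table, and a summit within 1 kb of it counted as at the end. Clustered peaks lay at a gene end in 18.2% (17.1 to 19.4), paired peaks in 14.6% (14.0 to 15.3) and single peaks in 10.8% (10.5 to 11.0). Of the 1326 clusters, 558 (42.1%) had a peak at a gene end and 932 (70.3%) had a peak inside a gene. This share at gene ends moved with several of the differences that follow, and values at and away from gene ends are given beside them.

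RAD21 covered clustered CTCF peaks about as often as single ones. In clone A2 in DMSO, 57.1% (55.6 to 58.6) of clustered peaks were overlapped by a RAD21 peak and 57.2% of single ones, a difference of -0.114 points (-1.67 to 1.43), with 57.4% over all CTCF peaks. Clone D7 had 54.4% of clustered and 52.1% of single peaks overlapped, which is 2.31 points more in clusters (0.756 to 3.87), with 52.8% over all CTCF peaks. That small difference in clone D7 was -0.585 points (-2.14 to 0.977) when summits had to lie within 200 bp in place of any overlap, and -3.27 points (-7.01 to 0.400) at gene ends.

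STAG1, STAG2 and PDS5A differed between clustered and single CTCF peaks by more points than RAD21 did. STAG1 overlapped 44.2% of clustered and 38.8% of single CTCF peaks, 5.35 points more (3.81 to 6.91), with 40.0% over all CTCF peaks. STAG2 went the other way, with 26.2% of clustered and 33.3% of single peaks, -7.09 points (-8.46 to -5.69), against 32.3% over all CTCF peaks. PDS5A showed the widest gap, 46.1% against 34.2%, or 11.9 points (10.3 to 13.4), with 36.6% over all CTCF peaks. Pairs lay between the other classes for these proteins, at 42.8% for STAG1, 31.0% for STAG2 and 41.6% for PDS5A. WAPL overlapped 4.87% of clustered and 4.22% of single peaks, a difference of 0.642 points (0.00958 to 1.35), with 4.46% over all CTCF peaks. The WAPL list held 2667 peaks against 22518 to 39713 in the lists for STAG1, STAG2, PDS5A and RAD21 in DMSO, so its shares are bounded by its length. Requiring summits within 200 bp brought the STAG1 difference to 2.34 points (0.828 to 3.86) and that of PDS5A to 8.41 points (6.91 to 9.92). With the upper 50% of CTCF peaks by fold, STAG1 differed by 2.51 points (-1.44 to 6.21) and STAG2 by -12.4 points (-16.5 to -8.27), over 185 clusters. The WAPL difference was -0.348 points when clusters needed 4 peaks and -1.26 points with a 2 kb limit.

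**Figure D1:**
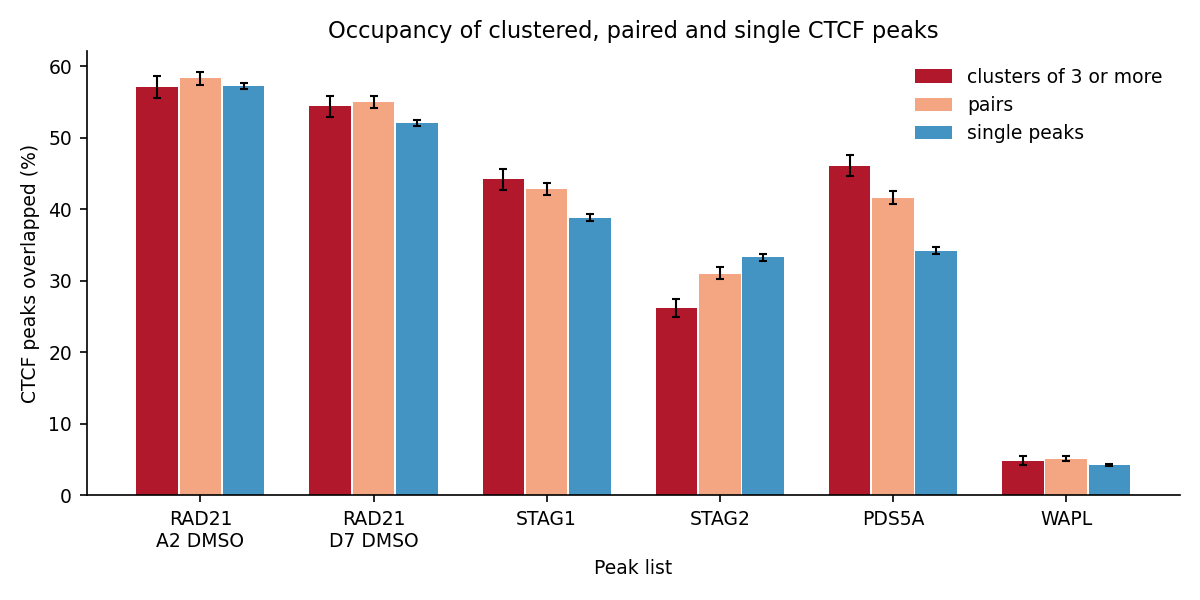
Share of CTCF peaks in percent (vertical axis) overlapped by each peak list (horizontal axis), for clustered, paired and single CTCF peaks; bars are shares in 1 library and lines are 95% Wilson intervals. PDS5A is at 46.1% in clusters and 34.2% at single peaks, STAG2 at 26.2% and 33.3%, and RAD21 in clone A2 at 57.1% and 57.2%.

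The same differences were present at like CTCF strength. Within each quartile of the CTCF list by fold, PDS5A was more frequent in clusters, from 19.6% against 9.45% among the weakest CTCF peaks to 84.9% against 74.1% among the strongest. STAG1 was also higher in each of these, from 15.6% against 8.28% to 89.3% against 84.7%. STAG2 was lower in each, and the gap was widest in the quartile below the strongest, with 30.1% of clustered and 46.5% of single peaks, -16.4 points (-19.3 to -13.3). RAD21 in clone A2 split by strength: 19.4% against 13.9% among the weakest CTCF peaks, and 77.1% against 80.8% in the quartile below the strongest.

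Values for STAG1 and PDS5A went with position. Away from gene ends the differences between clustered and single peaks were 5.59 points for STAG1 (3.90 to 7.30), -6.39 for STAG2 (-7.93 to -4.81) and 11.3 for PDS5A (9.65 to 13.0). At gene ends they were -2.89 points for STAG1 (-6.65 to 0.871), -3.38 for STAG2 (-5.96 to -0.509) and 2.66 for PDS5A (-1.05 to 6.27). Single peaks at gene ends were themselves rich in PDS5A, at 59.4%, against 31.2% away from them, and clustered peaks had 62.0% and 42.5%.

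Among clustered CTCF peaks with RAD21 in clone D7 in DMSO, 2358 in number, 42.0% (40.0 to 44.0) had both STAG proteins, 35.4% (33.5 to 37.4) STAG1 only, 3.73% (3.04 to 4.58) STAG2 only and 18.9% neither. At single CTCF peaks with RAD21 these shares were 48.6%, 23.1%, 9.00% and 19.3%. Clustered RAD21 sites thus had STAG1 alone more often and STAG2 alone less often, in counts whose intervals do not meet. Away from gene ends STAG1 only was at 30.3% in clusters and 18.5% at single sites, and STAG2 only at 4.53% and 10.1%. At gene ends STAG1 only was at 56.4% and 54.6%. PDS5A was present at 74.3% of the clustered RAD21 sites and 59.7% of the single ones, and WAPL at 8.86% and 8.06%. The STAG1 list is longer than the STAG2 list, with 26879 against 22518 peaks, and the shares in this paragraph are compared only between classes of site.

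Larger clusters differed further in the same direction for STAG2 and PDS5A, but not for STAG1. In clusters of 5 or more peaks, STAG2 was at 19.9% (16.1 to 24.4) of CTCF peaks and PDS5A at 53.8% (48.6 to 59.0), against 27.3% (25.8 to 28.9) and 45.1% (43.4 to 46.9) in clusters of 3. STAG1 was at 41.6% (36.6 to 46.8) in the largest and 44.5% (42.7 to 46.2) in the smallest. RAD21 in clone A2 was at 51.0% (45.8 to 56.2) in the largest and 58.2% (56.5 to 59.9) in the smallest. For clone D7 these were 51.0% (45.8 to 56.2) and 54.9% (53.1 to 56.6), with intervals that meet. First and last peaks of a cluster and peaks between them were close, with RAD21 in clone A2 at 57.6% and 56.3% and PDS5A at 45.1% and 47.7%, while STAG2 was at 27.6% (26.0 to 29.4) of outer and 23.9% (21.9 to 26.0) of inner peaks.

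Within a cluster, occupancy followed the rank of CTCF fold. RAD21 in clone A2 overlapped 87.6% of the strongest CTCF peaks, 61.0% of the second and 30.0% of the third or lower. Clone D7 gave 83.6%, 57.1% and 29.3%. STAG1 was at 74.5%, 43.4% and 20.8%, and PDS5A at 70.5%, 45.9% and 27.1%. STAG2 was rare at the lower ranks, with 56.4%, 22.8% and 5.10%. WAPL was at 12.9% of the strongest peaks, 2.56% of the second and 0.356% of the rest. In the 858 clusters with RAD21 at more than 1 CTCF peak in clone A2, the peak with the highest RAD21 fold was also the one with the highest CTCF fold in 628 (73.2%). The share to be met if the 2 folds were unrelated was not worked out. Such a rise is not particular to clusters. From the weakest to the strongest quartile of CTCF fold, single peaks went from 13.9% to 97.1% for RAD21 in clone A2 and from 2.35% to 76.7% for STAG2.

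**Figure D2:**
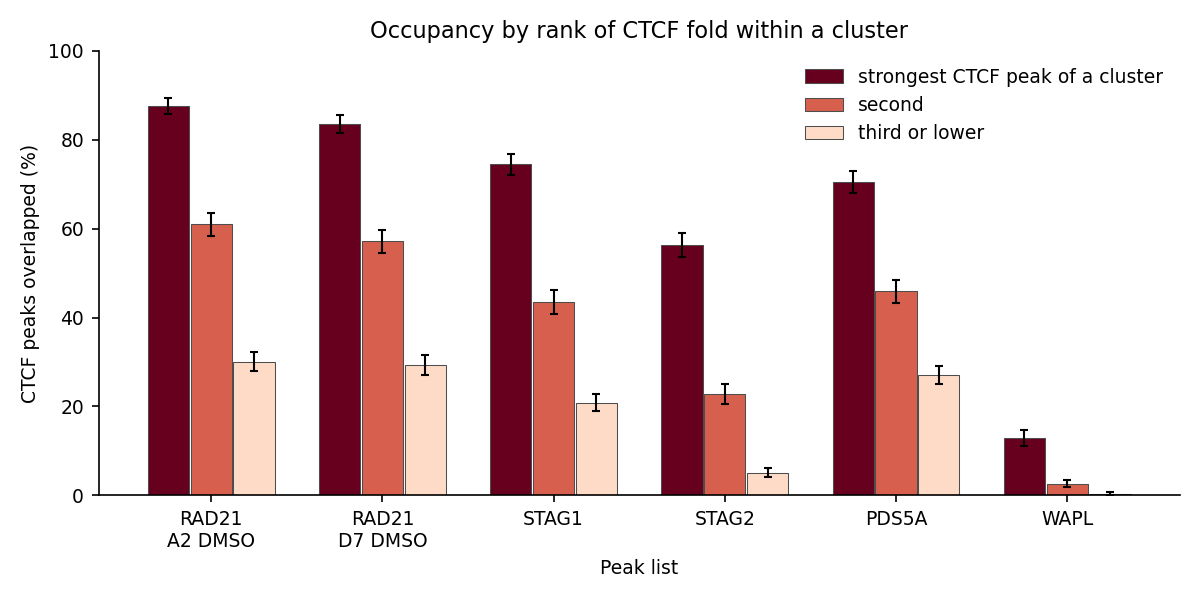
Share of clustered CTCF peaks in percent (vertical axis) overlapped by each list (horizontal axis), by the rank of CTCF fold within the cluster; bars are shares in 1 library with 95% Wilson intervals. STAG2 stands at 56.4%, 22.8% and 5.10% from the strongest to the lowest ranks, and RAD21 in clone A2 at 87.6%, 61.0% and 30.0%.

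Few clusters had RAD21 at every CTCF peak. In clone A2 in DMSO, RAD21 overlapped every CTCF peak in 237 of 1326 clusters (17.9%), some in 993 (74.9%) and none in 96 (7.24%). In clone D7 the counts were 208, 1002 and 116. Per CTCF peak, RAD21 was at 57.1% of clustered peaks in clone A2 and at 54.4% in clone D7. The counts of clusters that such shares alone would give were not worked out, for RAD21 or for the other lists. STAG1 was at every CTCF peak of 114 clusters, PDS5A of 137, STAG2 of 22 and WAPL of 0, for which the upper Wilson bound is 0.289%. STAG1 was at more CTCF peaks than STAG2 in 654 clusters, at fewer in 97, and at as many in 575. The STAG1 list is the longer, with 26879 against 22518 peaks, and no counts for pairs or single peaks stand beside these. No RAD21 peak in either DMSO list was found at 70 clusters, and 199 had 3 or more RAD21 peaks in both.

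The 5 clusters with the most CTCF peaks differed in how many of these were occupied. The largest, with 7 peaks over PDLIM7 and DOK3 (chr5:177487890-177501962), which encode a LIM-domain adaptor and a docking protein, had CTCF folds of 7.67, 5.29, 44.0, 29.0, 11.0, 7.46 and 138. RAD21 in clone A2 in DMSO was called at the fifth of these with a fold of 4.22 and at the last with 36.6, and PDS5A at 6 of the 7. The cluster of 6 at RAET1G and ULBP2 (chr6:149922486-149942746), whose products are ligands of the NKG2D receptor, had RAD21 at 5 peaks in clone A2, with folds of 3.68, 89.7, 4.90, 9.29 and 12.0. The cluster of 6 at ATXN7L2 and CYB561D1 (chr1:109483277-109500503) had RAD21 at 4 peaks in either clone, STAG1 at 2 and STAG2 at 0. The cluster of 6 at LRRC46, SCRN2 and SP6 (chr17:47837056-47851242) had RAD21 and STAG1 and STAG2 at 3 peaks each. By contrast, 6 CTCF peaks nearest AMPH (chr7:38341273-38364075), of which 3 had folds of 77.5, 90.4 and 57.4, had no RAD21 peak in DMSO in either clone, STAG1 and PDS5A at 1 peak, and RAD21 after 4 h in clone D7 at 2 peaks with folds of 7.64 and 9.30.

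Strong CTCF peaks without RAD21 in DMSO were also found elsewhere. At REXO1 and KLF16 (chr19:1843681-1855825), which encode an exonuclease-domain protein and a Krüppel-like transcription factor, the 5 CTCF folds were 4.24, 111, 6.81, 92.7 and 3.13. There RAD21 appeared after 4 h of dTAGV-1 in clone D7 alone, at the 2 strongest CTCF peaks with folds of 4.77 and 3.41, and PDS5A at the same 2. At GLI4 (chr8:143272364-143285182), a zinc finger gene, 4 CTCF peaks of up to 132 in fold had no peak in any of the 6 RAD21 lists or in those of STAG1, STAG2, PDS5A and WAPL. At PIK3C3 (chr18:42027681-42035644), the class III phosphoinositide 3-kinase, 3 CTCF peaks with folds of 87.6, 51.0 and 3.56 had a single STAG2 peak of fold 7.49 and none of the others.

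The 2 STAG proteins parted most at a pair of named clusters. At SBK1 (chr16:28316709-28327599), a serine/threonine kinase gene, STAG1 was called at all 4 CTCF peaks with folds of 9.95, 11.4, 4.33 and 6.32 and STAG2 at none. At TMEM144 (chr4:158253024-158260542), a transmembrane protein gene, STAG2 was called at all 3 with folds of 25.6, 12.6 and 29.7, STAG1 at 1 with 18.1, and PDS5A at none. Clusters with 2 WAPL peaks numbered 17, and none had 3. By summed CTCF fold, the highest of the 17 was the one nearest SPTLC1, described with the fully kept clusters, at 312. Next were one in NTM (chr11:131687513-131695508), a neuronal adhesion gene, at 278 with WAPL folds of 12.7 and 8.12, and one at BAK1 (chr6:33579832-33591264), a pro-apoptotic gene of the BCL2 family, at 275 with 7.62 and 6.65. In the NTM and BAK1 clusters, the WAPL peaks sat on the 2 strongest CTCF peaks.

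RAD21 peaks at clusters were retained less often than those at single CTCF sites in each clone and at each time, by a margin that was small in clone D7 after 4 h. A DMSO RAD21 peak at a clustered CTCF peak counts as retained when a peak of the treated list overlaps it. In clone A2 there were 2413 such peaks, and 61.7% (59.7 to 63.6) were retained after 4 h and 66.0% (64.1 to 67.8) after 24 h. At single CTCF sites 73.3% and 71.6% were retained, so clusters differed by -11.7 points (-13.7 to -9.67) and -5.61 points (-7.61 to -3.67). In clone D7 there were 2261, of which 84.7% (83.1 to 86.1) were retained after 4 h and 71.2% (69.3 to 73.0) after 24 h, against 86.2% and 78.6% at single sites. Those differences were -1.54 points (-3.14 to -0.0390) and -7.43 points (-9.40 to -5.52). Pairs lay at 68.6% and 70.8% in clone A2 and at 86.3% and 75.7% in clone D7. Over all RAD21 peaks, CTCF-free ones included, retention was 62.2% and 64.0% for A2 and 80.0% and 68.8% for D7. Peaks outside CTCF were retained in 5.19% and 21.4% in clone A2 and in 50.3% and 25.8% in clone D7. The 2 comparisons within a clone share its DMSO library. A longer treated list offers more chances of overlap, and the treated lists were unequal. For clone A2 the 4 h list held 25763 entries and the 24 h list 28589, against 39713 in the untreated list. For clone D7 the 4 h list, with 39059, was longer than the untreated one, with 37566, and the 24 h list held 30114. Whether the contrast in retention between clones goes with these lengths was not tested. One measure could be set over all 6 RAD21 libraries, the share of CTCF peaks with RAD21 in clusters minus that at single peaks. It was -0.114 points in DMSO, -8.71 after 4 h and -5.93 after 24 h in clone A2, and 2.31, 0.541 and -6.09 points in clone D7. DMSO was the highest of the 3 in both clones, and dTAGV-1 minus DMSO was a mean of -6.15 points over the 2 clones. An exact permutation of the conditions within clones gave a two-sided p of 0.222, where the 9 arrangements allow no p below 0.111.

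In clone A2 after 24 h, the gap depended on how the lists were cut. It was -0.629 points (-2.59 to 1.23) when the DMSO and treated lists were cut to their same number of strongest peaks, and -1.52 points (-3.59 to 0.479) when both were held to a −log10 q of at least 10. In the other 2 wide gaps, the equal-length values were -7.95 points (-9.92 to -6.11) in clone A2 after 4 h and -4.73 points (-6.67 to -2.89) in clone D7 after 24 h. A 2 kb chaining limit, which left 160 clusters, gave -19.6 points (-25.8 to -13.4) in clone A2 after 4 h. The small gap in clone D7 after 4 h was 1.44 points (-3.61 to 5.20) with that limit. With lists of equal length it was -1.89 points (-3.53 to -0.355).

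The lower retention in clusters was in weak and middling RAD21 peaks. In clone A2 after 4 h, clusters retained 7.06% of their peaks in the weakest quartile of DMSO fold and single sites 16.3%, then 36.2% against 54.8% and 82.6% against 92.5%, and 99.9% against 99.8% in the strongest. In clone D7 after 24 h the series was 22.7% against 44.3%, 49.3% against 61.0%, 84.9% against 89.7% and 99.2% against 99.6%. In clone A2 after 24 h clusters were lower in the 2 weaker quartiles, with 14.8% against 30.8% and 47.9% against 57.7%, and at 84.9% against 81.9% and 97.2% against 94.7% in the stronger ones. In clone D7 after 4 h, the weakest quartile alone had an interval of the difference clear of 0, with 51.1% against 58.5%. Clustered RAD21 peaks were a little more often in the weakest quartile, 18.2% against 14.4% of single ones in clone A2 and 15.6% against 14.0% in clone D7. With the quartiles of single sites weighted to those of clustered peaks, the differences were -9.15 and -4.01 points in clone A2 and -1.54 and -7.65 points in clone D7.

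**Figure D3:**
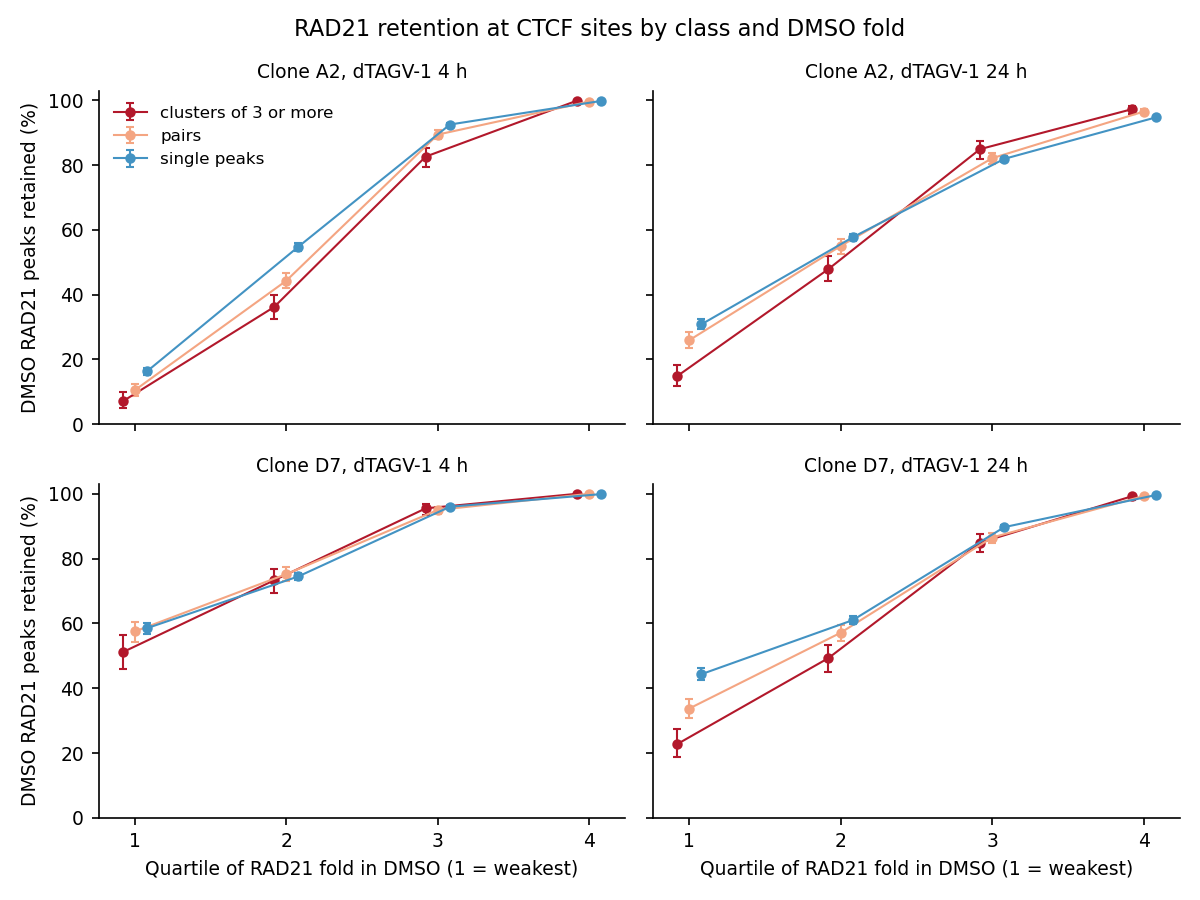
Share of DMSO RAD21 peaks retained in percent (vertical axis) against the quartile of RAD21 fold in the DMSO list (horizontal axis), for peaks at clustered, paired and single CTCF sites in each clone and time; points are shares with 95% Wilson intervals. In clone A2 after 4 h the second quartile is at 36.2% in clusters and 54.8% at single sites, and the strongest is at 99.9% and 99.8%.

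Gene ends moved with retention as well. In clone A2 after 4 h, RAD21 at gene ends was retained in 39.2% of clustered and 43.5% of single sites, -4.26 points (-9.18 to 0.832), and away from gene ends in 66.4% and 77.2%, -10.8 points (-13.0 to -8.67). In clone D7 after 4 h the order was the other way: -6.27 points (-10.3 to -2.75) at gene ends and -0.635 (-2.40 to 0.996) away from them. After 24 h the differences were -7.73 and -4.08 points in clone A2 and -7.76 and -6.41 points in clone D7, at and away from gene ends.

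Retention of a clustered RAD21 peak went with its STAG content in clone D7, in groups that were not split by RAD21 fold. STAG2 itself went with strength, at 1.12% of clustered CTCF peaks in the weakest quartile of CTCF fold and 69.2% in the strongest. Whether retention goes with STAG content at like RAD21 fold was not tested. Where both STAG proteins were present, 95.9% and 95.3% were retained for A2 and 98.6% and 96.9% for D7, after 4 h and 24 h, and single sites had 96.0%, 97.0%, 98.2% and 97.2%. Where only STAG1 was present, clusters retained 40.4% and 57.6% for A2 and 86.0% and 61.4% for D7, below the single sites with STAG1 only at 50.1%, 66.8%, 90.6% and 67.1%. With neither, clusters retained 22.4%, 29.1%, 52.4% and 26.8%, and single sites 42.4%, 42.7%, 58.1% and 43.1%. STAG2-only peaks in clusters, 130 for A2 and 86 for D7, had an order of their own, 86.2% after 4 h and 43.8% after 24 h in clone A2 but 73.3% and 83.7% in clone D7. Single STAG2-only sites had nearly the same values, 88.6%, 43.8%, 70.3% and 85.1%.

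Inside clusters, loss was graded by strength. Of the 838 clusters with at least 2 RAD21 peaks in clone A2 in DMSO, the strongest RAD21 peak was retained in 84.6% and the weakest in 35.7% after 4 h, and in 85.1% and 43.3% after 24 h. In clone D7, with 768 such clusters, the shares were 97.0% and 70.7% after 4 h and 91.0% and 47.0% after 24 h. Clusters that kept only the strongest of the 2 numbered 427 after 4 h in clone A2, and those that kept only the weakest 17. After 24 h the numbers were 376 and 26 for A2 and 356 and 18 for D7, and after 4 h in clone D7 215 and 13. By rank of the CTCF peak beneath, retention in clone A2 after 4 h was 78.2% at the strongest, 54.1% at the second and 30.0% at the third or lower. This grading by strength is not particular to clusters. From the weakest to the strongest quartile of DMSO fold, retention at single sites went from 16.3% to 99.8% in clone A2 after 4 h. In clone D7 after 24 h it went from 44.3% to 99.6%.

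**Figure D4:**
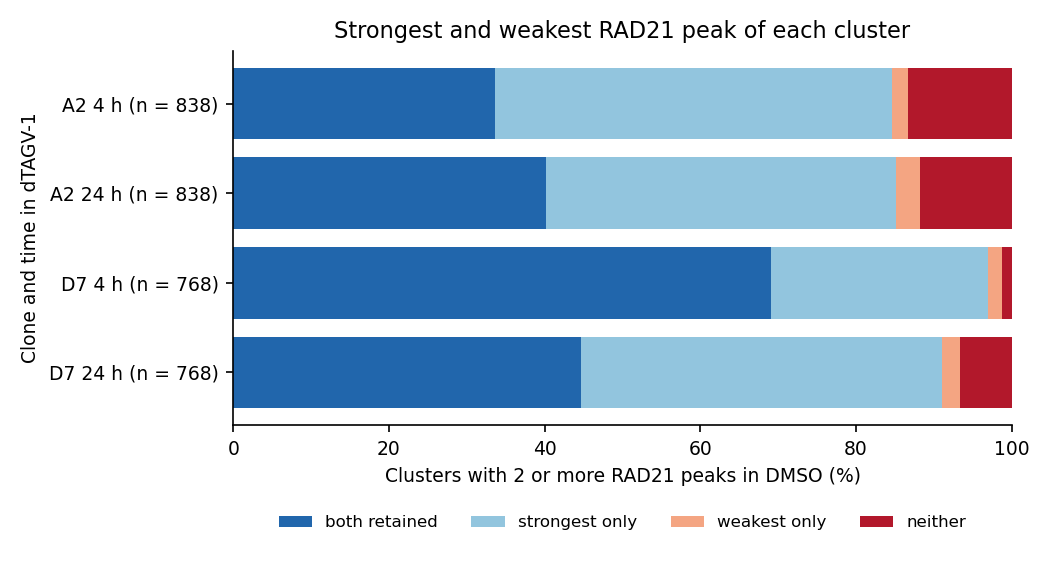
Percent of clusters with 2 or more RAD21 peaks in DMSO (horizontal axis) in which the strongest and the weakest of these peaks were both retained, singly retained or both lost, for each clone and time (vertical axis). After 4 h in clone A2, 427 of 838 clusters kept the strongest alone and 17 kept the weakest alone.

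At the level of whole clusters, 267 of the 838 in clone A2 (31.9%) kept every RAD21 peak after 4 h, 461 (55.0%) kept some and 110 (13.1%) kept none. After 24 h 325, 418 and 95 did. In clone D7, of 768, 514 (66.9%) kept all, 245 some and 9 (1.17%) none after 4 h, and 332 (43.2%), 387 and 49 after 24 h. Clusters of 5 or more CTCF peaks retained 53.2% (45.7 to 60.5) of their RAD21 peaks after 4 h in clone A2 and 60.0% (52.6 to 67.0) after 24 h in clone D7, against 62.7% (60.5 to 64.9) and 72.0% (69.8 to 74.1) in clusters of 3. In clone A2 after 24 h the shares were 56.1% (48.6 to 63.4) and 66.8% (64.6 to 68.9). In clone D7 after 4 h they hardly differed, at 82.9% (76.6 to 87.7) and 84.7% (82.9 to 86.3). The number of RAD21 peaks at clustered CTCF peaks was 0.630 times its DMSO number after 4 h and 0.690 after 24 h for A2, and 0.973 and 0.777 for D7. At single sites these ratios were 0.760, 0.772, 0.981 and 0.896. Peaks in a treated list without a DMSO counterpart made up 1.31%, 3.54%, 11.5% and 6.20% of the clustered ones and 3.13%, 7.38%, 12.2% and 12.1% of those at single sites, in the same order. Between the untreated libraries of the 2 clones, 87.3% (85.9 to 88.5) of clustered RAD21 peaks of clone A2 were found in clone D7, above the 83.0% (82.6 to 83.5) at single sites. Of those of clone D7, 92.2% (91.0 to 93.2) were found in clone A2, close to the 91.2% (90.8 to 91.6) at single sites.

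Of the 199 clusters with 3 or more RAD21 peaks in both DMSO lists, 36 kept every one in all 4 comparisons and 0 lost every one in all 4. The fully kept cluster with the highest summed CTCF fold, 326, lay nearest BTG2 (chr1:203266738-203273868), an antiproliferative gene, 31651 bp away. Its 3 CTCF folds were 109, 100 and 116, and its RAD21 folds in clone A2 were 13.6, 37.0 and 47.1 in DMSO, 8.41, 17.0 and 21.0 after 4 h and 12.6, 19.1 and 25.6 after 24 h. In clone D7 they were 13.3, 27.3 and 45.2 in DMSO, 22.9, 21.5 and 28.8 after 4 h and 8.34, 16.6 and 20.2 after 24 h. A fold is a peak's own value within its list, and these numbers show only that each site was called each time. Next came a cluster beside LGR6 (chr1:202183483-202193667), a receptor for R-spondins, with CTCF folds of 93.3, 124 and 102 and a sum of 319, and one nearest SPTLC1 (chr9:92133547-92141498), a subunit of serine palmitoyltransferase, with a sum of 312, where 3 RAD21 peaks lay over CTCF peaks of 144 and 165 in fold and WAPL was called at both.

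The 3 clusters chosen for the lowest retention, among those with 3 or more RAD21 peaks in both DMSO lists, each overlapped more than 1 gene. So did clusters named on other grounds, such as those at PDLIM7 and DOK3 and at REXO1 and KLF16. The share among all clusters was not worked out. At NDUFA7, RPS28 and KANK3 (chr19:8318694-8324868), the first of which encodes a subunit of respiratory complex I and the second a ribosomal protein, RAD21 folds in DMSO were 7.63, 8.98 and 5.78 for A2 and 4.79, 6.97 and 5.69 for D7. None was retained in clone A2 at either time, and in clone D7 1 was after 4 h, with a fold of 6.08, and none after 24 h. PDS5A was called at all 3 of these CTCF peaks, with a fold of 33.3 at the middle one, and STAG2 at none. At ZNRD2 and FAM89B (chr11:65569757-65574738), CTCF folds were 37.9, 22.4 and 130 and RAD21 folds in clone A2 in DMSO 17.1, 12.6 and 13.3. Again none was retained in clone A2, and in clone D7 only the site with the highest CTCF fold was, with 7.91 after 4 h and 6.18 after 24 h from 11.8 in DMSO. STAG1 and PDS5A were called at all 3 and STAG2 at none. At FLAD1, LENEP and ZBTB7B (chr1:154992955-155002439), which include the gene of FAD synthase, only the RAD21 peak with the highest fold was retained, in clone A2 after 24 h alone with 6.05 and in clone D7 at both times with 6.22 and 4.96.

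**Figure D5:**
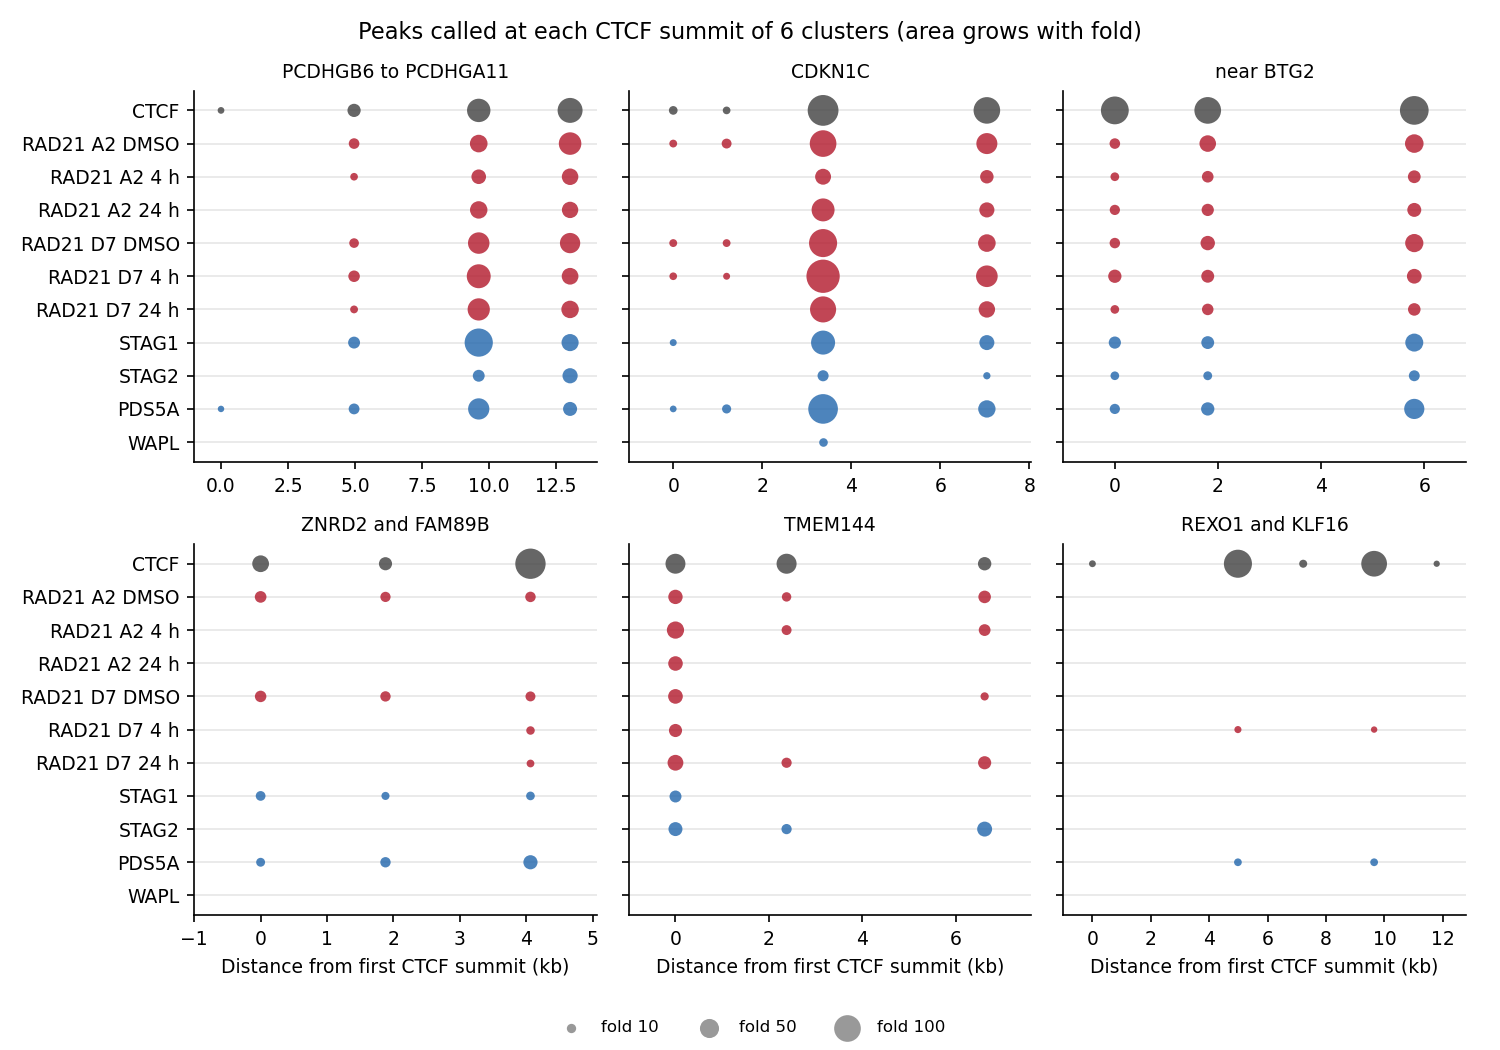
Peaks called at each CTCF summit of 6 clusters, by distance from the first summit in kb (horizontal axis) and peak list (vertical axis); the area of a disc grows with the fold of the peak, which is comparable only along a row. The cluster near BTG2 has discs in all 6 RAD21 rows at its 3 summits, and the ZNRD2 and FAM89B cluster has none in either treated row of clone A2.

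In the protocadherin gamma cluster whose promoters are printed above, RAD21 was not called at the PCDHGB6 summit in any of the 6 lists and was called at PCDHGA10, PCDHGB7 and PCDHGA11 in DMSO, with folds of 13.8, 42.2 and 70.6 for A2 and 10.9, 63.9 and 56.8 for D7. All 3 were retained after 4 h in both clones and after 24 h in clone D7, and PCDHGA10, which had the lowest fold, was lost after 24 h in clone A2. STAG1 was called at the same 3 with 18.0, 112 and 39.7, STAG2 at PCDHGB7 and PCDHGA11 with 17.9 and 30.8, and PDS5A at all 4. Over the protocadherin alpha, beta and gamma genes together, 24 of 53 genes lay within 10 kb of a cluster, with 11 of the 49 CTCF peaks near them (22.4%) in 3 clusters. RAD21 was at 5 of the 11 in DMSO in either clone, at 5 and 3 after 4 h and 24 h in clone A2, and at 6 and 4 in clone D7.

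Among imprinted loci, 2 of 14 genes had a cluster, with 8 of the 46 CTCF peaks near them (17.4%). The cluster at CDKN1C (chr11:2885017-2893307), a cyclin-dependent kinase inhibitor expressed from the maternal allele, had CTCF folds of 8.41, 6.05, 134 and 99.2. RAD21 folds in clone A2 were 6.36, 11.6, 99.7 and 61.1 in DMSO, with only the last 2 sites called after 4 h, at 33.9 and 23.6, and after 24 h, at 73.5 and 30.4. In clone D7 all 4 were called in DMSO, at 6.48, 6.34, 111 and 42.1, and after 4 h, and only the last 2 after 24 h. STAG2 and STAG1 shared those 2 strong sites, and WAPL was at 1 of them with 8.18. HOX genes, with 32 CTCF peaks within 10 kb, had 0 clusters, as did genes of cohesin and its regulators with 47 peaks and histone genes of chromosome 6 with 22. With so few CTCF peaks near these genes, few clustered ones would be found at the overall share, and a difference from it was not tested. Zinc finger genes of chromosome 19 had 9 clustered peaks in 3 clusters, and 4.08% of the CTCF peaks near them were clustered. The share was 11.1% over chromosome 19 and 7.33% over all CTCF peaks.

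The TMEM144 cluster, chosen for its excess of STAG2, changed its RAD21 calls in another order than most named clusters. In clone A2 its RAD21 folds were 27.2, 10.3 and 20.2 in DMSO, 40.2, 11.8 and 17.5 after 4 h, and 28.0 at the first site alone after 24 h. In clone D7 the first and the last sites were called in DMSO at 28.5 and 7.25, the first alone after 4 h at 22.3, and all 3 after 24 h at 33.4, 12.5 and 22.4. SBK1, the cluster richest in STAG1 against STAG2, had RAD21 at 3 sites in DMSO in clone A2, with 35.6, 27.0 and 12.7, kept the first 2 after 4 h and all 3 after 24 h, and kept all 3 in clone D7.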

How the data were processed

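The deposited files were 12 narrowPeak lists, each of 1 immunoprecipitation; 11 were used here, and the HA list and the 10 inputs were not analysed here. The submitters' processing notes name BWA, Picard, SAMtools, bedtools, deepTools and MACS2 and the builds hg38 and mm10; versions and settings are not given in the sources used here. Fold enrichment of a summit over local background is a ratio that the authors deposited, and the −log10 q is the value that the authors deposited. The peak names carry 0.001 for CTCF and 0.01 for the other lists. The labels' protocols state a size selection and a different library kit for CTCF alone. Read depth is not given in the lists used here, and no spike-in scaling was applied, so a change in level that leaves a peak called is not seen.

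CTCF peaks were chained by summit distance with Python 3.11.15 and pandas 2.3.3, and peaks of different lists were matched by an overlap of at least 1 bp. The code was tested on simulated peaks with known clusters. Quartiles of fold were taken within a list. Gene positions (19970 protein-coding genes) and promoter windows came from RefSeq GRCh38.p14, the release of hg38; strand was known for 15812 of the genes and no window of chromosome 8 was held. Named clusters follow one rule, applied in this order, with a cluster named earlier left out of later parts and strength taken as summed CTCF fold: the 5 with the most CTCF peaks; the 3 strongest with every RAD21 peak retained; the 3 least retained; the 3 strongest without RAD21 in DMSO; the 2 with most WAPL; the extremes of STAG1 against STAG2; and 1 for each gene list. Lists of genes were HOX, protocadherin, imprinted, cohesin and regulators, chromosome 19 zinc finger and chromosome 6 histone genes, with 10 kb around each gene. The clusters, the lists and the rule were chosen with earlier results of these data known. Alternatives were other chaining limits, sizes, thresholds, matching rules and strata. With 1 library per group, differences within a library were not tested; 1 exact permutation test, with clones as blocks, was added after the data were seen.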

Additional observations from a re-analysis of the deposited data

Results flagged for a closer look

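The difference in RAD21 occupancy in DMSO between clustered and single CTCF peaks had opposite signs in the clones, -0.114 points in clone A2 and 2.31 points in clone D7. With 1 library each, whether the clones differ was not tested, and the interval in clone A2 (-1.67 to 1.43) includes 0. Requiring summits within 200 bp gave -3.40 points in clone A2 and -0.585 points in clone D7, both below 0.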

How the results depend on the processing

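Differences are in points, clustered minus single sites. Of 118 recomputed differences, 71 stayed inside the interval first given, 40 moved out of it and 7 changed sign against an interval clear of 0; the causes were not tested. The lower STAG2 share (11 of 11 alternatives), the higher PDS5A share (11 of 11) and the lower retention in clone A2 after 4 h and 24 h and in clone D7 after 24 h (13 of 13 each) kept their sign, the higher STAG1 share in 10 of 11. A kept sign did not always come with an interval clear of 0. For retention in clone A2 after 24 h, the interval included 0 with lists of equal length and with the other lists at a −log10 q of at least 10. It also did in the upper 50% of CTCF peaks (-6.72 to 0.934). The same held for STAG1 in the upper 50%, and at gene ends for PDS5A and for retention in clone A2 after 4 h. The number of clusters, 1326, was 160 with a 2 kb limit, 3469 with 10 kb, 276 with 4 or more peaks and 185 in the upper 50% of CTCF peaks by fold. With 2 kb, STAG1 was 7.72, STAG2 -12.0, WAPL -1.26 and retention -19.6 and -8.73 in clone A2 after 4 h and 24 h and 1.44 in clone D7 after 4 h. With 10 kb, PDS5A was 13.7, STAG2 -4.94, WAPL 1.65 and retention -8.90 and -2.74 in clone A2. With 4 or more peaks, PDS5A was 14.5, STAG2 -10.0, WAPL -0.348, RAD21 in clone A2 -3.06 and retention -14.8 and -7.97 for A2 and -9.74 for D7 after 24 h. In the upper 50% of CTCF peaks, STAG1 was 2.51, STAG2 -12.4, RAD21 -2.64 for A2 and 0.510 for D7, and retention -7.72 and -2.70 for A2 and -5.24 for D7 after 24 h. With summits within 200 bp, PDS5A was 8.41, STAG1 2.34 and RAD21 -3.40 for A2 and -0.585 for D7. With the other lists at a −log10 q of at least 10, PDS5A was 9.54 and retention -9.57 and -1.52 for A2 and -3.22 for D7 after 4 h. Lists of equal length gave retention of -7.95 and -0.629 for A2 and -4.73 for D7 after 24 h. Quartile weighting gave -9.15 in clone A2 after 4 h, and DMSO peaks found in both clones -7.87 after 24 h. At gene ends, a choice made after seeing the data, PDS5A was 2.66, STAG1 -2.89, STAG2 -3.38, WAPL -0.184, RAD21 -2.07 for A2 and -3.27 for D7, and retention -4.26 and -7.73 for A2 and -6.27 for D7 after 4 h. Leaving out chromosome 19 or weak CTCF peaks (−log10 q under 10) moved none of the differences out of its interval. The labels hold no replicate numbers that pair libraries, and with clones as blocks the exact permutation test of the RAD21 gap gave p = 0.222 for a mean of -6.15 points. Read depth is unknown, so a site without a called peak may be bound below the threshold.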
